A study of Homo sapiens with 16 samples.

Results

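The genes described here are 47 members of the Wnt signalling system, chosen by symbol from the 57736 genes of the count table: 19 WNT ligands, 12 receptors (FZD1 to FZD10, LRP5 and LRP6), 9 secreted antagonists (SFRP1, SFRP2, FRZB, SFRP4, SFRP5 and DKK1 to DKK4), 4 R-spondins (RSPO1 to RSPO4), and AXIN2, LEF1 and TCF7. RNA was sequenced from H9, a human embryonic stem cell line, before differentiation (D0) and on days 12, 30 and 70 (D12, D30 and D70) of a cortical protocol that begins with dual SMAD inhibition by LDN-193189, a blocker of BMP signalling, and SB-431542, a blocker of the TGF-β receptor kinase. At each stage cells carried either Thiamet-G (TMG), an inhibitor of the enzyme O-GlcNAcase that removes O-GlcNAc from proteins, at 40 µM, or its solvent DMSO alone. The TMG cells were exposed from the undifferentiated stage onward, both arms received the same differentiation factors, and no Wnt ligand or inhibitor is named in the labels. There were 2 libraries in each of the 8 groups, 16 in all, which the study describes as biological replicates of 1 cell line.

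Wnt ligands are secreted lipid-modified proteins that bind Frizzled receptors together with the co-receptors LRP5 and LRP6. Binding stabilises β-catenin, which then works with the DNA-binding factors LEF1 and TCF7 to activate target genes, among them AXIN2, whose product feeds back to degrade β-catenin. SFRP proteins and FRZB bind the ligands, DKK1 blocks the co-receptors, and R-spondins keep Frizzled at the cell surface. In the embryonic brain the pathway favours posterior and dorsal identities, and the cortical hem and roof plate at the dorsal midline are known sources of WNT ligands such as WNT2B, WNT3A and WNT8B.

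Library totals ranged from 10334908 to 19836878 counts. Levels are given as CPM, the counts of a gene scaled to a common library size with TMM factors, and values in each group are given as replicate 1 and then replicate 2. Libraries were grouped by their titles. For 8 of the 16 libraries a separate treatment tag names the other arm, since that tag runs with the replicate number at every stage. Stem cell markers (8 genes, among them POU5F1 and NANOG) summed to between 3298 and 3782 CPM on D0 and to between 1.97 and 5.35 CPM on D70.

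In all, 3 libraries stood apart by the summed level of 9 mesenchyme markers, among them COL1A1, COL3A1 and TWIST1. On D30 this sum was 4392 and 5213 CPM in DMSO and 5661 and 30560 CPM in TMG. On D70 it was 7477 and 45745 CPM in DMSO and 3913 and 60055 CPM in TMG, so replicate 2 of both arms was high, and all 9 markers were above 0 in every D30 and D70 library. Choroid plexus markers (6 genes, led by TTR) ran the other way on D70, with 10202 and 366 CPM in DMSO and 3155 and 55.7 CPM in TMG. In these bulk RNA samples, fewer cells of a type and less RNA per cell cannot be told apart.

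**Figure D1:**
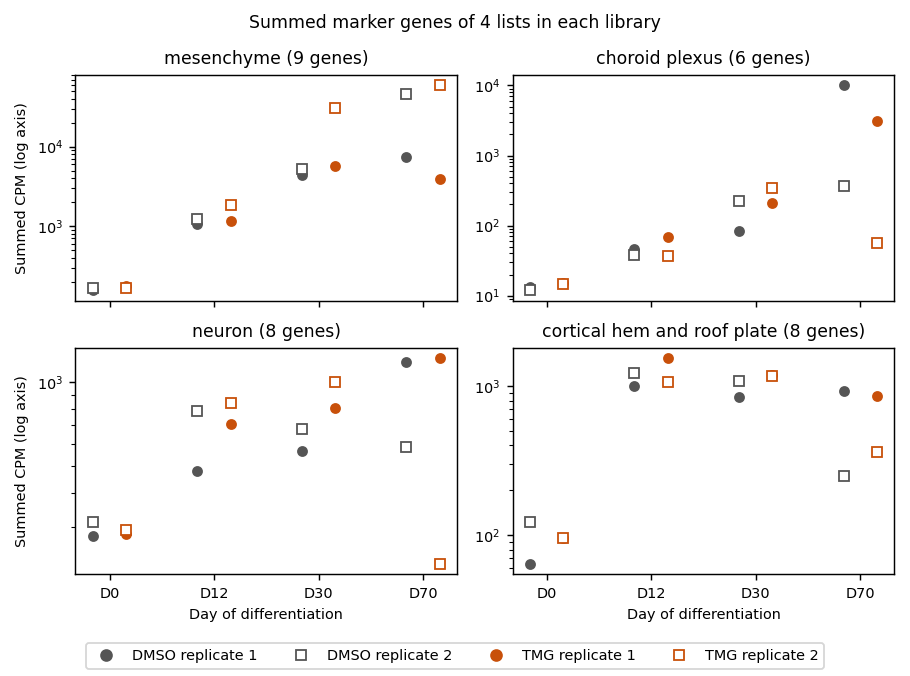
Summed CPM of 4 marker lists in each library (log axis) by day, with DMSO in grey, TMG in orange, replicate 1 filled and replicate 2 open. The mesenchyme panel shows 30560 CPM in TMG replicate 2 of D30 against 4392 to 5661 CPM in the other D30 libraries.

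The promoters of 5 members are shown first, because of their stage or treatment differences or because they hold a TCF/LEF word. WNT1 and WNT6 had the largest D12 to D0 count ratios among the members that passed the test, WNT4 and FZD8 were among the members called on D30 by DESeq2, and DKK1 is 1 of 2 members whose window holds a TCF/LEF word. Each sequence is the 300-base window of RefSeq (GRCh38.p14) from 250 bases before to 50 bases after the annotated start, read on the gene's strand, 5′ to 3′; capitals mark TCF/LEF words.
WNT1: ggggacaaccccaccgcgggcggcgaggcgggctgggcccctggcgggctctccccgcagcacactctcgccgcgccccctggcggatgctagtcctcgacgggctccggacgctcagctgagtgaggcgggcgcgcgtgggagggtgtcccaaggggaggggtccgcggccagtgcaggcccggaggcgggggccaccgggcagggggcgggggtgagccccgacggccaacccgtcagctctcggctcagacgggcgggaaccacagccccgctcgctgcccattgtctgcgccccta
WNT6: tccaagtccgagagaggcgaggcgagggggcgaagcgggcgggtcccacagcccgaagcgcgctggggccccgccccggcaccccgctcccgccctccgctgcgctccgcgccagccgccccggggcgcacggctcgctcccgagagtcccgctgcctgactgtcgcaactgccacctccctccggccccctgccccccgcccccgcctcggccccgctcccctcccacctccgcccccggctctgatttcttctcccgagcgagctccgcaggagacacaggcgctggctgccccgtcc
WNT4: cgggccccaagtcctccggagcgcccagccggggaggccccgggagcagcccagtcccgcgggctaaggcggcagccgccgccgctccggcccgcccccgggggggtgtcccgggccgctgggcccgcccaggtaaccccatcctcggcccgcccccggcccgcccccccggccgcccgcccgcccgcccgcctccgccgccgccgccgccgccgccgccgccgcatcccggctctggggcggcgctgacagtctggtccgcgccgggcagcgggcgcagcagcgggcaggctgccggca
FZD8: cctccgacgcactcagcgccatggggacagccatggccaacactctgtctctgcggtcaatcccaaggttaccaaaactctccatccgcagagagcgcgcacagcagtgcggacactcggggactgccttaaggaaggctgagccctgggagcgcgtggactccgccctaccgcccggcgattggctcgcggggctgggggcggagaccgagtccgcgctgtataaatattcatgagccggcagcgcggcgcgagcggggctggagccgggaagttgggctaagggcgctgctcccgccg
DKK1: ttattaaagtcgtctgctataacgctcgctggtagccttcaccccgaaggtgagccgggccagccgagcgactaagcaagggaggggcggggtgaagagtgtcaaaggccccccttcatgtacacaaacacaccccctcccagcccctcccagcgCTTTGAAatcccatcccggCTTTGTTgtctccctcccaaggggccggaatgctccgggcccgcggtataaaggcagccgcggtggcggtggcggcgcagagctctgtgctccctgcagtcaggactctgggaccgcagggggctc
The windows are WNT1 at chr12:48978072-48978371 (plus strand), WNT6 at chr2:218859555-218859854 (plus), WNT4 at chr1:22143048-22143347 (minus), FZD8 at chr10:35642247-35642546 (minus) and DKK1 at chr10:52314031-52314330 (plus). RefSeq windows were matched for 32 of the 47 members. Their median GC content was 70.8% with 28 CpG dinucleotides, against 58.3% and 14 over all 27305 windows. The WNT4 window reached 85.7% GC with 47 CpG dinucleotides. The search covered 4 words of 7 letters on both strands, namely CTTTGAA, the word CTTTGAT, the word CTTTGTA, and lastly CTTTGTT, and no word is contained in another. At least 1 of them was present in 2 of 32 member windows (6.25%), those of DKK1 and WNT3, and in 13.9% of all windows. In DKK1 both words lie before the start, the first beginning 95 bases before it. AXIN2 and FZD10 have no entry in that table.

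In DMSO cells, 31 of the 46 members tested differed among the 4 stages (edgeR quasi-likelihood test, false discovery rate 5%), against 35.5% of all genes tested. The count was 17 without D0 replicate 1, 20 without D30 replicate 2 and 19 without the filter on low counts. The shares of all genes in those fits are not given. DKK4, a co-receptor antagonist, did not pass the filter on low counts, with 10 counts in all 16 libraries. The mean DMSO level was highest on D0 for 9 members, on D12 for 13, on D30 for 8 and on D70 for 17. These stages were the same for all 47 members under the RLE scaling, and 30 of 47 had the same stage in the TMG arm. The 15 members tested and not called were DKK1, FRZB, FZD2, FZD3, FZD4, FZD10, LEF1, LRP6, TCF7, WNT3, WNT4, WNT8A, WNT9A, WNT9B and WNT16.

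**Figure D2:**
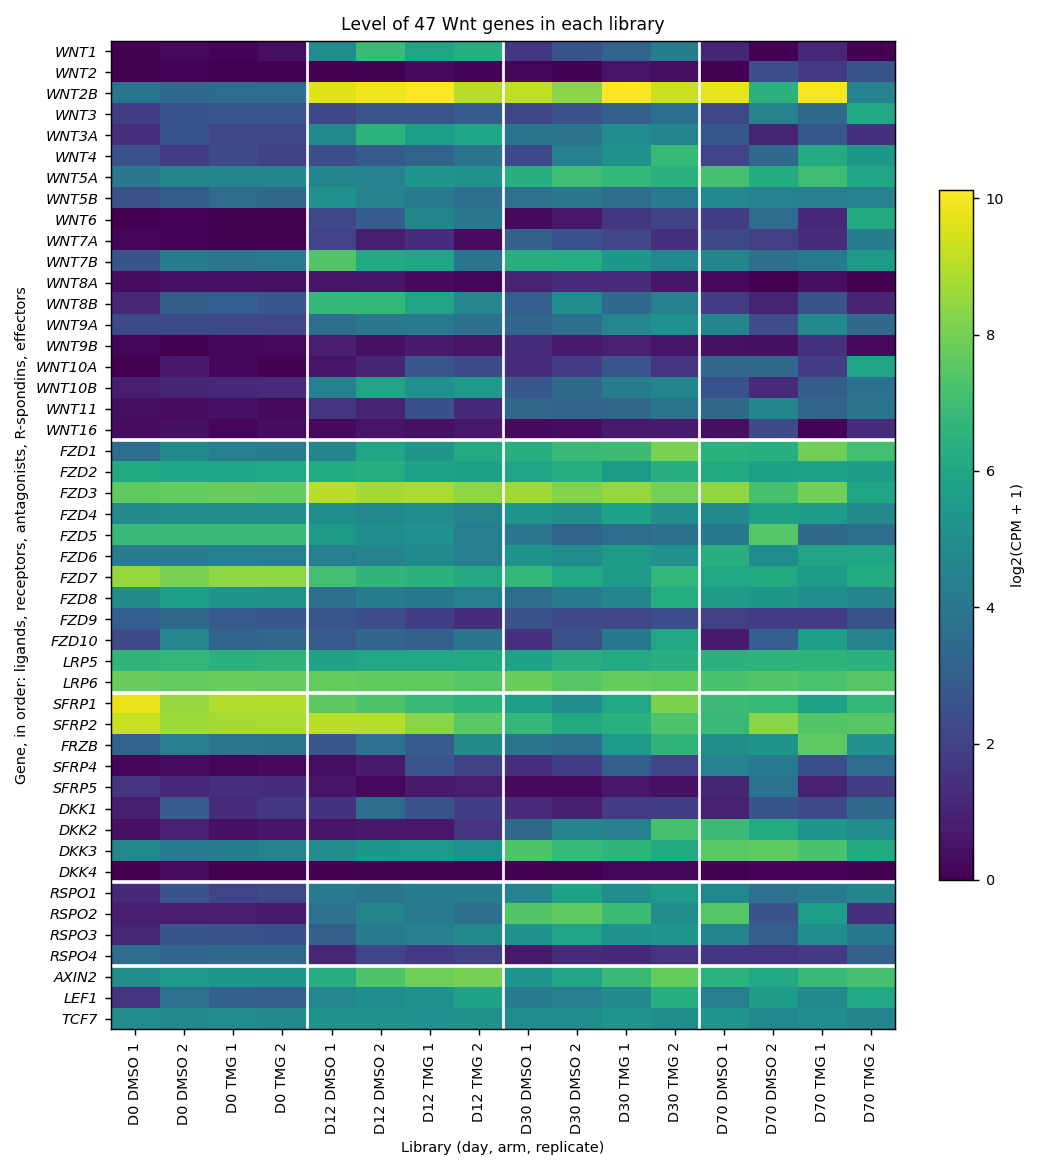
Level of the 47 genes (rows, by role) in the 16 libraries (columns, by day, arm and replicate), as log2(CPM + 1). WNT2B goes from 14.4 and 9.64 CPM in D0 DMSO to 793 and 955 CPM in D12 DMSO, and falls to 86.8 and 21.4 CPM in replicate 2 of the D70 arms.

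Compared per kilobase of exon, the secreted antagonist SFRP2 had the highest mean level of all members at each DMSO stage, at 252, 262, 44.2 and 109 CPM per kb on D0, D12, D30 and D70. This rank did not hold in every DMSO library. Per kilobase, SFRP2 was below RSPO2 in D30 replicate 2 and below WNT2B in D70 replicate 1. The D30 mean of RSPO2 was 41.6 CPM per kb. On D70 SFRP2 was at 116 and 321 CPM, so its rank there rested on replicate 2. Among receptors, FZD7 was highest on D0 (69.3 CPM per kb) and FZD3 on D12 (34.8 CPM per kb). The WNT ligands were low on D0, where WNT5A led with 2.62 CPM per kb. On D12 the leading ligands were WNT2B (70.6 CPM per kb), WNT8B (49.3) and WNT1 (30.4). WNT2B had the highest ligand mean on D30 (36.0 CPM per kb) and D70 (38.5 CPM per kb). On D70 this rested on replicate 1 (867 CPM), since in replicate 2 WNT2B (7.02) was below WNT5A (10.2) and WNT11 (10.0 CPM per kb). Exons of WNT2B share 2665 bases with ST7L on the opposite strand, and whether counting used strand is not stated.

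From D0 to D12, ligands were most of the members that rose, and no test of enrichment was run. In DMSO, 10 members rose and 3 fell by edgeR at a false discovery rate of 5%, against 6.97% of all genes rising and 9.71% falling (16.7% in all). Of the 10 that rose, 8 were ligands, of 19 ligands tested: WNT1, WNT2B, WNT3A, WNT5B, WNT6, WNT7B, WNT8B and WNT10B. The others were RSPO1 and AXIN2. The median log2 fold change was 2.30 over the ligands, 0.67 over all members, and −0.39 over the receptors.

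WNT1, a ligand of the midbrain and dorsal midline in the embryo, had 0 and 0.210 CPM on D0 and 29.6 and 117 CPM on D12. Only 3 counts were present on D0, and the ratio of D12 to D0 was 724 (95% interval 247 to 3512, counting error only). WNT6 had 0 and 0.0698 CPM on D0, from 1 count, and 3.53 and 6.72 CPM on D12, a ratio of 154 with an interval of 27.3 to 6110. Both ligands were at or near 0 in every D0 library of both arms, and the groups did not overlap.

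WNT2B (ENSG00000134245; chr1:113009163-113072787, GRCh37) stood at 14.4 and 9.64 CPM on D0 and at 793 and 955 CPM on D12, a log2 fold change of 6.18 ± 1.55 (standard error). WNT8B, a ligand of the cortical hem and hippocampal primordium, went from 1.11 and 6.98 CPM to 105 and 106 CPM, and WNT3A, a ligand of the hem, from 1.54 and 4.82 CPM to 27.1 and 91.1 CPM. For each of these 3 ligands both D12 libraries were well above both D0 libraries. WNT10B rose by 5.49 ± 0.72, with the lowest adjusted p of the members (edgeR, 0.00152), and WNT5B, a ligand mostly known from β-catenin independent signalling, rose by 2.26 ± 0.33. WNT7B had a log2 fold change of 3.32 ± 0.82. Summed markers of the cortical hem and roof plate (8 genes, none of them a WNT gene) went from 64.3 and 122 CPM to 1009 and 1226 CPM over the same step, and their part in the ligand results was not tested.

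AXIN2, the feedback target (ENSG00000168646; chr17:63524681-63557766, GRCh37), stood at 28.9 and 42.3 CPM on D0 and at 77.3 and 158 CPM on D12. It rose by 1.73 ± 0.39 (edgeR adjusted p = 0.0153); its exons share 1316 bases with the unnamed gene ENSG00000266076. RSPO1, a Wnt amplifier of the dorsal neural tube, rose from 1.23 and 5.03 CPM to 16.6 and 14.3 CPM. In the other direction, the stem cell receptor FZD7 fell from 362 and 273 CPM to 136 and 99.5 CPM (−1.43 ± 0.37), the co-receptor LRP5 from 97.1 and 102 CPM to 55.5 and 63.7 CPM (−0.74 ± 0.17), and RSPO4 from 11.4 and 8.94 CPM to 1.13 and 3.39 CPM (−2.17 ± 0.63). The second co-receptor, LRP6, stood at 220.3 and 203 CPM and at 213 and 200.4 CPM (−0.03 ± 0.17). Without D12 replicate 1 the AXIN2 and RSPO4 values were 2.18 and −1.56. Without D12 replicate 2 they were 1.12 and −3.16.

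In the TMG arm, 11 members rose and 3 fell over the same step, against 7.24% and 9.19% of all genes (16.4% in all). WNT1, WNT2B, WNT3A, WNT6, WNT10B, RSPO1 and AXIN2 rose in both arms, and FZD7 fell in both. AXIN2 had a log2 fold change of 2.62 ± 0.41 in TMG. Under TMG, SFRP4, WNT10A, WNT11 and RSPO3 also passed upward and SFRP1 and FZD9 downward. A difference of this step between the arms was called for 0 members by edgeR (2 at an unadjusted p under 0.05, WNT5B and SFRP4) and for 0 by DESeq2. No share of all genes is given for those 2 members. With 1 D0 or D12 library left out at a time, the DMSO count of 13 went to between 2 (without D0 replicate 1) and 10, with 5 and 4 calls without D12 replicate 1 and 2. Without the filter on low counts it was 9, with WNT11 newly called and WNT2B, WNT6, WNT7B, WNT8B and LRP5 no longer called. The TMG count was then 10, with RSPO4 newly called and WNT2B, WNT10A, RSPO3, SFRP1 and FZD9 no longer called. Shares of all genes in the refits of this step are not given, so whether the lower counts are particular to the members was not tested. The TMG count of 14 went to 4 without either D0 replicate and to 5 and 7 without either D12 replicate.

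From D12 to D30 in DMSO, 3 members rose and 1 fell (edgeR), against 1.91% and 1.69% of all genes (3.60% in all). DKK2, a co-receptor modulator, had 0.540 and 0.601 CPM on D12 and 10.3 and 23.8 CPM on D30, a log2 fold change of 4.89 ± 0.94. WNT5A, a ligand of β-catenin independent signalling, went from 22.5 and 21.4 CPM to 80.0 and 125 CPM (2.22 ± 0.39). DKK3, a secreted relative of the DKK antagonists whose exons share 5681 bases with USP47, went from 28.4 and 40.8 CPM to 159.9 and 109 CPM (1.96 ± 0.37). SFRP2 was the member that fell, from 534 and 513 CPM to 106 and 70.7 CPM (−2.57 ± 0.48). Without the filter on low counts the call for DKK2 ended (4.92) and WNT11 was newly called. With any 1 of the 4 libraries of this step left out, 0 of the 4 calls passed, with log2 fold changes of 4.16 to 5.37 for DKK2, 1.86 to 2.52 for WNT5A, 1.66 to 2.25 for DKK3 and −2.88 to −2.31 for SFRP2.

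In TMG only DKK2 was called, with 0.623 and 1.99 CPM on D12 and 20.2 and 144 CPM on D30 (5.99 ± 0.95; 0.388% of all genes rose and 0.124% fell, 0.511% in all). DKK2 was called without D30 TMG replicate 1 (6.79) and not without D30 TMG replicate 2 (3.96) or either D12 library (5.36 and 7.04). With the 3 mesenchyme-rich libraries left out, which leaves 1 D30 TMG library, 8 members were called in TMG (5.12% of all genes), DKK2 at 3.97 among them. Among members past an unadjusted p of 0.05 but not past the false discovery rate, ligands that had risen by D12 had negative values in DMSO, with WNT3A at −2.07 ± 0.80, WNT8B at −2.52 ± 0.93 and WNT10B at −2.32 ± 0.60. RSPO2, an R-spondin of the dorsal midline, reached 168 and 195 CPM on D30 from 12.6 and 22.8 CPM on D12 (3.36 ± 1.46; edgeR adjusted p = 0.224).

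From D30 to D70 in DMSO, edgeR called 0 members, against 0.305% of all genes rising and 0.0784% falling (0.384% in all). At an unadjusted p under 0.05 there were 18 members, 12 higher and 6 lower, against 18.4% of all genes. DESeq2 called 7, against 8.13%: SFRP4, SFRP5, DKK2, FZD5, FZD8 and WNT6 higher and WNT8B lower. All 8 antagonists tested had positive values, with a median of 1.53, and the groups did not overlap for 7 of them (24.0% of all genes did not overlap upward). SFRP4 stood at 1.60 and 2.66 CPM on D30 and at 21.3 and 16.8 CPM on D70 (3.14 ± 0.61; edgeR adjusted p = 0.0571). In TMG edgeR called 0 members, against 0.00412% of all genes rising, 0.00412% falling and 0.00825% in all, and DESeq2 called WNT3A (1.75% of all genes). At an unadjusted p under 0.05 there were 8 members in TMG, for which the share of all genes is not given. FZD5 (3.06) and SFRP5 (5.40) rested on D70 DMSO replicate 2, and without it their log2 fold changes were 0.45 and 2.63, with 0 members called by edgeR. WNT6 went from 4.04 to 2.66 without it. With the 3 mesenchyme-rich libraries left out, which leaves 1 D70 library in each arm and 1 D30 library in TMG, edgeR called 7 members in DMSO (9.54% of all genes) and 0 in TMG (0.256%). Of the 7 that DESeq2 called in DMSO from all libraries, SFRP4, SFRP5, DKK2, FZD8 and WNT6 were among them.

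The D70 replicates of each arm differed widely for several members, which were chosen after their values were seen. WNT2B was at 867 and 86.8 CPM in DMSO and at 998 and 21.4 CPM in TMG. RSPO2 was at 172 and 5.06 CPM in DMSO and at 49.4 and 1.57 CPM in TMG. The receptor FZD3 was at 347 and 144 CPM in DMSO and at 251 and 60.3 CPM in TMG. For all 3 genes replicate 1 was the higher library in both arms, as for the summed choroid plexus markers. WNT6 and WNT10A were instead highest in D70 TMG replicate 2, at 69.8 and 59.6 CPM, against at most 10.8 and 9.56 CPM in the other D70 libraries. The receptor FZD5 was at 176 CPM in D70 DMSO replicate 2 and at 10.3 to 16.2 CPM in the other D70 libraries.

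The comparison of TMG with DMSO at each stage asked whether the inhibitor moved the Wnt genes. By edgeR at a false discovery rate of 5% it called 0 members and 0.00% of all genes at each of the 4 stages. At an unadjusted p under 0.05 there was 1 member higher and 0 lower on D0 (0.367% and 0.895% of all genes), 2 higher and 3 lower on D12 (1.54% and 0.936%), 10 higher and 0 lower on D30 (7.10% and 4.89%), and 3 higher and 3 lower on D70 (2.61% and 2.88%). DESeq2 at a false discovery rate of 5% called 0 members on D0 (0.0116% of genes), 1 on D12 (0.0525%), 5 on D30 (3.22%) and 2 on D70 (0.214%). In a check on simulated counts for D30, unchanged genes made up more than the nominal 5% of the DESeq2 calls. Those counts were drawn with edgeR's own estimates of the spread and without stage differences. That setting follows edgeR's model, so the check does not rank the tools on the real data. DESeq2 calls made here without edgeR are still read with caution.

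On D0, WNT5B was the member past an unadjusted p of 0.05, with 4.69 and 6.85 CPM in DMSO and 10.6 and 9.16 CPM in TMG (0.77 ± 0.32). FZD9 was at 7.03 and 9.36 CPM against 6.24 and 5.76 CPM (−0.45 ± 0.40). DKK1 was at 0.802 and 6.43 CPM against 1.44 and 2.01 CPM (−1.06 ± 1.08), and its groups overlapped. Its value was −1.86 without DMSO replicate 1 and 1.10 without DMSO replicate 2. The median over members was −0.02. Groups did not overlap for 7 members higher and 5 lower, against 19.7% and 16.9% of all genes.

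On D12, SFRP4 (ENSG00000106483; chr7:37945534-38065297, GRCh37), which binds Wnt ligands, had 0.294 and 0.656 CPM in DMSO and 5.40 and 2.98 CPM in TMG. Both TMG libraries were above both DMSO libraries, and the log2 fold change was 3.13 ± 0.64 (DESeq2 adjusted p = 0.0188). AXIN2 was at 77.3 and 158 CPM in DMSO and at 238 and 264 CPM in TMG (1.09 ± 0.39), without overlap. Lower values with TMG were found for WNT5B (33.2 and 22.2 CPM against 17.6 and 11.5 CPM), FZD9 (5.40 and 4.43 against 2.70 and 1.49 CPM) and SFRP2 (534 and 513 against 317 and 185 CPM). Their log2 fold changes were −0.93 ± 0.31, −1.22 ± 0.41 and −1.06 ± 0.46. Groups did not overlap for 12 members higher and 10 lower, against 17.8% and 16.5% of all genes. Without D12 DMSO replicate 1, only SFRP4 (2.65) remained past an unadjusted p of 0.05, and AXIN2 was at 0.66 and WNT5B at −0.62, while without D12 DMSO replicate 2 AXIN2 was at 1.70. Summed neural crest markers (7 genes) were at 352 and 497 CPM in DMSO and at 543 and 1027 CPM in TMG on D12, a median log2 fold change of 1.32 with 0 of 7 past an unadjusted p of 0.05. Mesenchyme markers had a median of 1.05, with 0 of 9 past it. The part of these markers in the D12 values was not tested.

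On D30 all 10 members past an unadjusted p of 0.05 were higher with TMG. They were AXIN2, the ligands WNT4, WNT9A and WNT10B, the receptors FZD8 and FZD10, and the antagonists SFRP1, SFRP4, FRZB and DKK2. Their log2 fold changes ran from 1.32 for SFRP4 (0.62 without TMG replicate 1) to 3.62 for FZD10. The median over all 46 members was 0.53, against 0.01 over all genes tested. It was 0.88 over ligands, 1.41 over antagonists, 0.10 over receptors and −0.20 over R-spondins. Without TMG replicate 2 it was 0.34 over all 46 members, 1.00 over ligands, 0.97 over antagonists, 0.08 over receptors and −0.34 over R-spondins, against 0.00 over all genes. Groups did not overlap for 21 members higher and 4 lower, against 23.1% and 21.0% of all genes.

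AXIN2 was at 38.0 and 59.3 CPM in DMSO and at 112 and 208 CPM in TMG on D30. The lower TMG library lay above both DMSO libraries, and the log2 fold change was 1.72 ± 0.39 (edgeR adjusted p = 0.18; DESeq2 adjusted p = 0.0049). Left out in turn, each of the 4 D30 libraries gave a value between 1.2 and 2.09, with the lowest without TMG replicate 2. The nuclear effector LEF1, whose exons share 279 bases with LEF1-AS1, had 16.7 and 18.9 CPM against 26.6 and 79.8 CPM (1.58 ± 0.78), and 0.57 without TMG replicate 2. The other nuclear effector, TCF7, stood at 29.1 and 30.6 CPM against 37.6 and 32.3 CPM (0.23 ± 0.21), and on the other days between 22.4 and 38.0 CPM in every library.

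WNT4 (ENSG00000162552; chr1:22443806-22470462, GRCh37), a ligand known from kidney and gonad development, was at 3.85 and 20.3 CPM in DMSO and at 34.3 and 109 CPM in TMG. Its log2 fold change was 2.55 ± 0.81 (edgeR adjusted p = 0.27; DESeq2 adjusted p = 0.0333), with 1.49 without TMG replicate 2 and 4.21 without DMSO replicate 2. FZD10 (ENSG00000111432; chr12:130647004-130650285, GRCh37), a receptor of the dorsal neural tube, was at 1.69 and 4.66 CPM against 16.2 and 63.6 CPM (3.62 ± 1.14; DESeq2 adjusted p = 0.0163), and its value was 2.32 without that library. In both genes all TMG libraries were above all DMSO libraries and replicate 2 was the highest.

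FZD8 (ENSG00000177283; chr10:35927175-35931224, GRCh37), a forebrain receptor, was at 10.9 and 17.0 CPM in DMSO and at 23.7 and 75.3 CPM in TMG (1.82 ± 0.49; DESeq2 adjusted p = 0.0202). SFRP1 was at 48.9 and 30.3 CPM against 65.6 and 281 CPM (2.13 ± 0.62; DESeq2 adjusted p = 0.0222). DKK2 was at 10.3 and 23.8 CPM against 20.2 and 144 CPM (2.26 ± 0.78), and its groups overlapped. For these 3 genes TMG replicate 2 was far above the other D30 libraries, and without it the log2 fold changes were 0.76, 0.73 and 0.23, none of the 3 past an unadjusted p of 0.05 by edgeR.

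**Figure D3:**
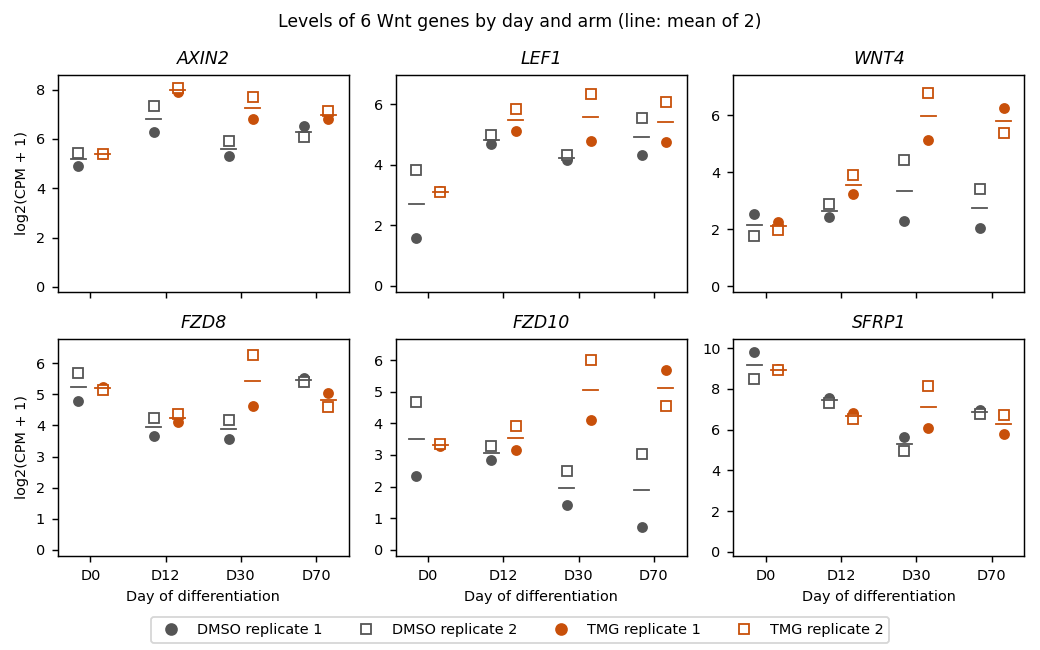
Levels of AXIN2, LEF1, WNT4, FZD8, FZD10 and SFRP1 as log2(CPM + 1) by day, with each library as a point and the mean of 2 as a line. On D30 both TMG points (orange) of AXIN2 (112 and 208 CPM) lie above both DMSO points (38.0 and 59.3 CPM), and replicate 2 (open squares) is the higher TMG point in all 6 panels on that day.

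Of the mesenchyme markers, 3 of 9 were higher at an unadjusted p under 0.05 and none lower. Their sum was highest in TMG replicate 2, as were FZD8, SFRP1 and DKK2, while SFRP4 was highest in TMG replicate 1. The part of these markers in the D30 values was not tested. Neural crest markers (2 of 7 higher) summed to 71.0 and 109 CPM in DMSO and to 209.5 and 310.1 CPM in TMG. PAX3 alone made up 48.3 and 79.5 CPM of these sums in DMSO and 175 and 159 CPM in TMG. Cortical hem and roof plate markers (2 of 8 higher) summed to 842 and 1079 CPM in DMSO and to 1189.6 and 1171 CPM in TMG. Of the 8 stem cell markers 4 were higher, with a median log2 fold change of 1.74, while their sums overlapped (60.0 and 32.2 against 84.1 and 28.8 CPM). POU5F1, the pluripotency factor OCT4, was at 0.0939 and 0.401 CPM in DMSO and at 9.12 and 5.48 CPM in TMG, without overlap. Neuron markers (1 of 8 higher) summed to 564 and 678 CPM against 809 and 1001 CPM, also without overlap. Midbrain and hindbrain markers (1 of 8 higher) were at 27.1 CPM in TMG replicate 2 and at 2.62 to 4.26 CPM in the other D30 libraries, and choroid plexus markers (1 of 6 higher) were at 83.4 and 225 against 213 and 343 CPM. The part of these lists was not tested either. Without D30 TMG replicate 2, 2 members were higher and 1 lower at an unadjusted p under 0.05 (4.27% of all genes), with AXIN2 and SFRP4 the higher ones. Without TMG replicate 1, 9 were higher and 0 lower (17.0% of all genes, 9.15% higher), and edgeR called SFRP1 and FZD8 at a false discovery rate of 5%, among 175 genes in all. Without DMSO replicate 1 there were 3 (6.12% of all genes) and without DMSO replicate 2 there were 8 (8.90%), all higher. With the 3 mesenchyme-rich libraries left out, AXIN2 was at 1.17, FZD10 at 2.25 and WNT9A at 1.21. This fit leaves 1 D30 TMG library, the same as the fit without D30 TMG replicate 2, and differs from it only by D70 libraries.

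**Figure D4:**
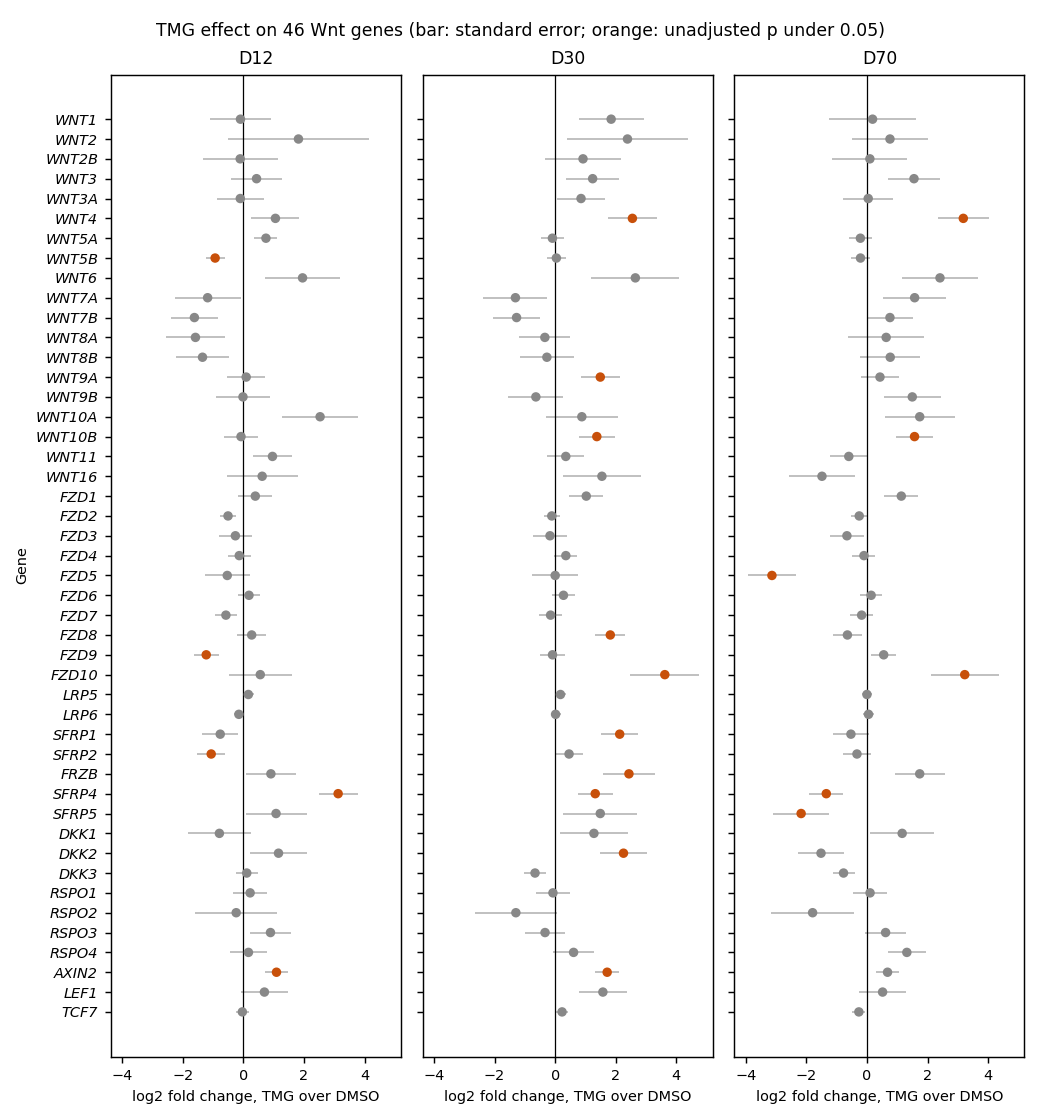
Log2 fold change of TMG over DMSO for the 46 members tested on D12, D30 and D70, with the standard error as a bar and members at an unadjusted p under 0.05 in orange. On D30 the 10 orange points all lie to the right of 0, while on D12 and D70 they lie on both sides.

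On D70, 3 members were higher and 3 lower at an unadjusted p under 0.05. WNT4 was at 3.15 and 9.64 CPM in DMSO and at 74.7 and 40.6 CPM in TMG (3.18 ± 0.84; edgeR adjusted p = 0.856; DESeq2 adjusted p = 0.0261). Both TMG libraries lay above both DMSO libraries, and the part of mesenchyme markers in these values was not tested. The sum of neural crest markers also did not overlap, at 15.2 and 128 CPM in DMSO and 163 and 322 CPM in TMG. In this list 1 of 7 was higher at an unadjusted p under 0.05, with a median log2 fold change of 0.92. PAX3 alone made up 149 CPM of the sum in TMG replicate 1. Every other gene of the list was lower in that library than in DMSO replicate 2. The part of these markers in the WNT4 and FZD10 values was not tested. FZD10 also did not overlap, at 0.642 and 7.23 CPM against 50.7 and 22.3 CPM (3.23 ± 1.12). Its value was 2.34 without DMSO replicate 1, 5.81 without DMSO replicate 2 and 2.52 without TMG replicate 1. With the mesenchyme-rich libraries left out, which compares 1 library with 1 and assumes that a lone library varies like the other groups, WNT4 was at 4.57 and FZD10 at 6.29.

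WNT10B was at 4.88 and 1.37 CPM in DMSO and at 6.95 and 11.8 CPM in TMG (1.57 ± 0.61), with values of 2.77 without DMSO replicate 1 and 0.96 without DMSO replicate 2, the latter not past an unadjusted p of 0.05. FZD5 (ENSG00000163251; chr2:208627322-208634630, GRCh37), a receptor of the eye field, had a value of −3.14 ± 0.80 (DESeq2 adjusted p = 0.0223) that rested on the 176 CPM of DMSO replicate 2, and it was −0.56 without that library. SFRP5 (1.09 and 13.7 against 0.868 and 2.40 CPM) overlapped between the arms, and SFRP4 (21.3 and 16.8 against 4.50 and 10.5 CPM) did not (−1.34 ± 0.56). Left out in turn, the D70 libraries gave SFRP4 values between −0.86 (without TMG replicate 1) and −2.08 (without TMG replicate 2), of which only the latter passed an unadjusted p of 0.05, and SFRP5, at −2.17 in all libraries, was at 0.59 without DMSO replicate 2. AXIN2 was at 91.6 and 65.7 CPM against 112 and 139.5 CPM (0.68 ± 0.38), and LEF1 at 18.9 and 45.4 against 26.0 and 65.8 CPM (0.52 ± 0.77). The LEF1 value was −0.30 without TMG replicate 2 and 1.30 without DMSO replicate 2. Groups did not overlap for 6 members higher and 7 lower, against 9.79% and 12.3% of all genes. The value of WNT6 was 3.38 without D70 TMG replicate 1 and −2.39 without D70 TMG replicate 2. The value of FZD5 was −4.01 without D70 DMSO replicate 1.

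AXIN2 had log2 fold changes with TMG of 0.20 ± 0.38, 1.09 ± 0.39, 1.72 ± 0.39 and 0.68 ± 0.38 on D0, D12, D30 and D70. The AXIN2 value on D0 was smaller than its standard error. It was −0.02 in 1 of the fits with a D0 library left out. The co-receptors LRP5 and LRP6 had values between −0.15 and 0.18 at all 4 stages, with standard errors of 0.17. Over all 16 libraries LRP5 lay between 55.5 and 102 CPM and LRP6 between 149 and 226 CPM. In TMG, AXIN2 was at 41.3 and 40.4 CPM on D0, both between the DMSO values of that day, so the groups overlapped. LEF1 was at 1.97 and 13.1 CPM in DMSO against 7.81 and 7.46 CPM in TMG on D0 (0.03 ± 0.79) and at 24.7 and 30.2 against 33.4 and 55.6 CPM on D12 (0.70 ± 0.77, and 0.27 without D12 TMG replicate 2). On D0 the LEF1 value was −0.75 without DMSO replicate 1 and 1.95 without DMSO replicate 2. Differences between the TMG effects of consecutive stages were called by edgeR for 0 members, with 2, 4 and 6 members at an unadjusted p under 0.05 for D12 against D0, D30 against D12 and D70 against D30. Shares of all genes are not given for these differences, so the counts are not read as particular to the members. The D30 minus D12 difference for SFRP1 was 2.89 ± 0.86 and the D70 minus D30 difference for FZD8 was −2.47 ± 0.69.

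In all, 4 pairs of WNT ligands are neighbours in the genome (GRCh37), and their DMSO levels are described by pair. WNT10B (chr12:49359123-49365518, minus strand) and WNT1 (chr12:49372105-49376403, plus strand) lie 6586 bases apart and both had their highest DMSO mean on D12. WNT6 and WNT10A, 6618 bases apart on chromosome 2, had their highest DMSO mean on D70, where WNT6 (2.63 and 10.8 CPM) overlapped its D12 libraries (3.53 and 6.72 CPM), and both were highest of all 16 libraries in D70 TMG replicate 2. WNT9A and WNT3A lie 59065 bases apart on chromosome 1. WNT3A had its highest DMSO mean on D12, while WNT9A was at 11.8 and 15.5 CPM on D12 and at 23.2 and 4.18 CPM on D70. WNT3 and WNT9B are separated by 46 bases on chromosome 17, and WNT9B stayed at or below 1.82 CPM in every library. WNT9A, WNT3 and WNT9B were not called among the 4 stages, so no stage of highest level was established for them.

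**Figure D5:**
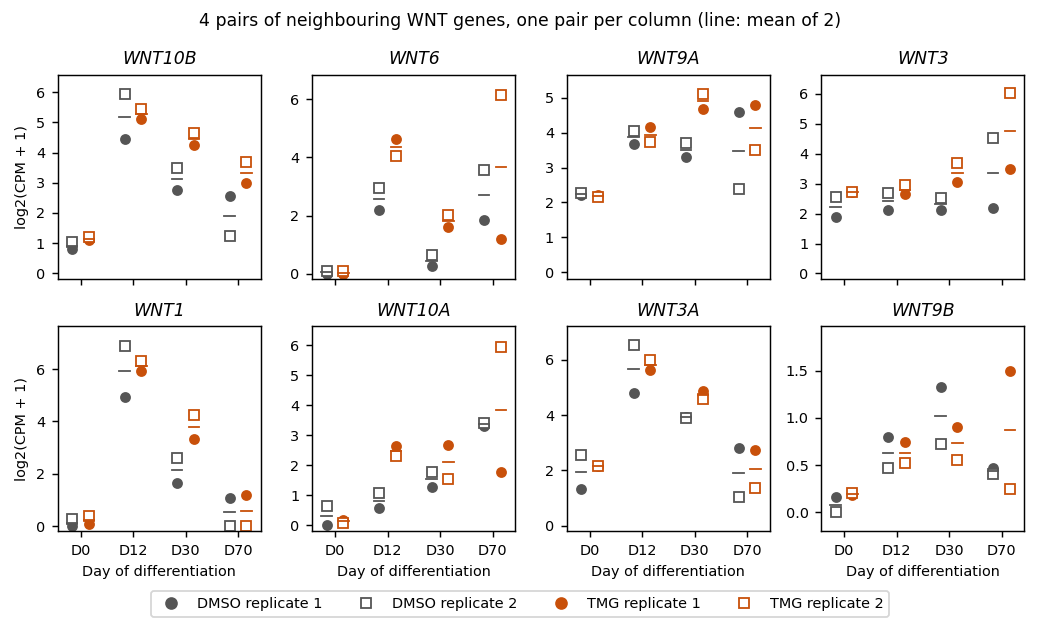
Levels of 4 pairs of neighbouring WNT genes as log2(CPM + 1) by day, 1 pair per column, with each library as a point and the mean of 2 as a line. WNT10B and WNT1 (left column) are highest on D12 in both arms, and WNT6 and WNT10A (second column) share their highest library, D70 TMG replicate 2 (69.8 and 59.6 CPM).

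The remaining members are given by level. WNT2, WNT8A, WNT9B and WNT16 had between 112 and 153 counts in all 16 libraries together, and their levels are imprecise at this depth. WNT3, a ligand of the primitive streak, was at 3.60 and 22.1 CPM in D70 DMSO and at 10.3 and 64.9 CPM in D70 TMG. WNT7A, a cortical ligand, was highest in DMSO on D30, at 7.60 and 4.86 CPM, and WNT11 on D70, at 10.3 and 23.8 CPM. The receptors FZD1, FZD2, FZD4 and FZD6 were between 11.5 and 270.2 CPM in every library. RSPO3 was between 1.11 and 58.6 CPM, DKK1 between 0.802 and 11.1 CPM, and FRZB between 5.54 and 193 CPM.

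A further list of 57 genes of the pathway (secretion, other receptors, receptor turnover, the destruction complex, nuclear partners, other inhibitors and planar polarity) was followed beside the members. From D0 to D12 in DMSO, 11 rose and 2 fell by edgeR (6.97% and 9.71% of all genes), among them WLS, the carrier needed for ligand secretion (5.51), the R-spondin receptor LGR5 (3.0), the secreted inhibitor SOSTDC1 (3.46), and the receptor ROR1, which fell (−1.73). From D12 to D30, KREMEN1, a DKK receptor, rose (1.19) and the planar polarity gene SCRIB and the Dishevelled gene DVL2 fell (−1.06 and −0.73), against 1.91% of all genes rising and 1.69% falling. With 1 library of the step left out, 2 to 6 of the 13 D12 calls passed, WLS and SOSTDC1 not without D0 replicate 1 and LGR5 and ROR1 in no such fit, and 0 of the 3 D30 calls. On D30 with TMG, 12 were higher and 3 lower at an unadjusted p under 0.05 (7.10% and 4.89% of all genes), 0 by edgeR after adjustment and 7 by DESeq2 (3.22%). Those 7 were all higher: APCDD1 (4.30), WIF1 (5.33), DACT2 (3.12), LGR6 (3.65), PRICKLE1 (3.81), KREMEN1 (0.91) and BTRC (0.78). Without D30 TMG replicate 2 their edgeR log2 fold changes were 2.64, 1.39, 1.00, 2.21, 0.97, 1.06 and 0.50 in the same order, with APCDD1, KREMEN1 and BTRC past an unadjusted p of 0.05 (3 genes of the list higher and 1 lower, against 4.27% of all genes). APCDD1 and WIF1 encode secreted or membrane inhibitors of Wnt ligands. The list had 1, 3 and 3 genes at an unadjusted p under 0.05 on D0, D12 and D70, all higher. Of all genes, 0.367%, 1.54% and 2.61% were higher and 0.895%, 0.936% and 2.88% lower. On these days 0 genes of the list were called by either tool, against 0.00% of all genes by edgeR and 0.0116%, 0.0525% and 0.214% by DESeq2.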

How the data were processed

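The study sequenced rRNA-depleted RNA. Per the labels and the study's methods, the authors aligned reads with Bowtie2 to hg19 and deposited estimated counts per Ensembl gene (GRCh37.p13) from RSEM 1.2.12, not normalized and as whole numbers; how they were rounded and whether strand was used are not given in the sources used here. Genes were kept by filterByExpr (minimum count 10, minimum total 15), which left 24249 of 57736. All 16 libraries entered 1 edgeR 4.0.16 model with a mean per group (TMM, robust quasi-likelihood F-test, 8 residual degrees of freedom), and p-values were adjusted by Benjamini-Hochberg over all genes tested at a false discovery rate of 5%. The study's own tool, DESeq2 (1.42.0 here, R 4.3.3), was run as an alternative, with RLE scaling, no filter, a replicate block, each comparison's own libraries and each library left out. CPM are counts over the TMM-scaled library size; per-kilobase levels use GENCODE v44lift37 exons. A standard error is the fold change (log2) divided by the square root of F. The comparison of TMG with DMSO on D30 was tested on simulated counts, drawn with edgeR's own estimates of the spread and without stage differences. There DESeq2 recovered more of the changed genes than edgeR and also called more unchanged ones, beyond its nominal rate of 5%. How the tools compare on the real data was not tested by it.

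Replicates differed by more than counting error (chi-square per degree of freedom 29.2 to 182), so none was counted as a repeat of another; precision was taken from their spread, and depth limits the low genes. The members and lists were chosen with earlier results of these data known. Values in every library were chosen for AXIN2 and LEF1 (TCF7, LRP5 and LRP6 partly as ranges), for the 3 members with the lowest p at each stage, for members called with TMG, and for the 3 largest rises and falls of each stage step; the others were named by role or chosen after their values were seen. The fit without the mesenchyme-rich libraries was added after seeing the data.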

Additional observations from a re-analysis of the deposited data

Results flagged for a closer look

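For 6 members the 2 TMG libraries of one stage lay above both DMSO libraries while those of another stage lay below both. At single stages, between 9.79% and 23.1% of all genes did not overlap upward and between 12.3% and 21.0% downward. The share of all genes with such reversals is not given, so the 6 are not read as particular to the members. These reversals were tested as differences of the TMG effect (log2) between the stages, and none passed edgeR's false discovery rate of 5% (adjusted p between 0.932 and 1). For SFRP4, higher with TMG on D12 and D30 and lower on D70, the D70 effect minus the D12 effect was −4.47 and the D70 effect minus the D30 effect was −2.67. For SFRP1, lower on D12, higher on D30 and lower on D70, the D30 effect minus the D12 effect was 2.89 and the D70 effect minus the D30 effect was −2.66. For WNT5B, higher on D0 and lower on D12 and D70, the D12 effect minus the D0 effect was −1.70 and the D70 effect minus the D0 effect was −0.99. The difference was −2.47 for FZD8 (D70 minus D30), −2.68 for DKK2 (D70 minus D12) and 1.57 for WNT9A (D30 minus D0). Some of these separations were narrow. The TMG effect was −0.08 for WNT9A on D0 and −0.21 for WNT5B on D70. DKK2 on D12 had 11 and 11 counts in DMSO and 12 and 32 counts in TMG. On D30 the higher TMG library of FZD8 and SFRP1 was replicate 2, at 75.3 and 281 CPM, which also had the highest mesenchyme marker sum of that stage (30560 CPM); the part of that library's composition in these differences was not tested.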

How the results depend on the processing

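Of 611 values of 68 followed fold changes under the alternatives, 506 kept their direction and side of the threshold, 57 fell below it, 25 passed it and 23 changed sign. For TMG against DMSO, where edgeR called 0 members, DESeq2 called 1 on D12, 5 on D30 and 2 on D70. At an unadjusted p under 0.05, the comparison's own 4 libraries gave 13, 18 and 3 members on D12, D30 and D70, and DESeq2 gave 10 on D70. The shares of all genes in these fits are not given, so the counts are not read as particular to the members. With mesenchyme-rich libraries left out, D70 compares 1 library with 1, and its count is not given. For the stage steps, DESeq2 called 20, 13 and 7 members in DMSO and 23, 6 and 1 in TMG (D12 against D0, D30 against D12, D70 against D30). For D70 against D30 DESeq2 called 8.13% of all genes in DMSO and 1.75% in TMG. Shares are not given for the other steps, so their counts are not read as particular to the members. Without the low-count filter, D70 against D30 in DMSO had 2 calls, D30 against D12 in TMG 0, and the test over all 4 stages 19. Leaving the mesenchyme-rich libraries out gave 7 calls for D70 against D30 in DMSO and 8 for D30 against D12 in TMG. The cause of these shifts was not tested.

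Replicate numbers are not stated to mark a shared culture, and the replicate differences of the arms correlated at 0.05, 0.37, 0.22 and 0.61 on D0, D12, D30 and D70, so pairing was not established. With a replicate block, 9, 16 and 14 members passed an unadjusted p of 0.05 on D12, D30 and D70, and 1 was called on D30, AXIN2 (adjusted p = 0.0474). Of the other pathway genes, the block called WIF1 (5.32) and APCDD1 (4.12), both at an adjusted p of 0.0296, and CTNNBIP1 (0.0497) on D30. LEF1 from D0 to D12 in DMSO also passed with the block (2.19). Shares of all genes under the block are not given, so these counts and calls are not read as particular to the Wnt genes.

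Leaving out 1 library at a time gave, at an unadjusted p under 0.05, 0 to 4 members on D0, 1 to 6 on D12, 3 to 9 on D30 and 6 to 13 on D70. Calls ranged from 0 to 2 on D30 and from 0 to 1 on D70. Calls for the stage steps ranged from 2 to 10, 0 to 0 and 0 to 3 in DMSO and from 4 to 7, 0 to 1 and 0 to 5 in TMG, those for the difference between the D70 and D30 effects from 0 to 1, and those over all 4 stages from 17 to 28. Each of these fits leaves 1 library in a group, and the share of all genes passing also moved between them. The ranges are therefore not read as results about the members. Signs changed for 14 fold changes. LRP6 with TMG on D30 was −0.0066 without the filter, LRP5 on D70 was −4.5e-05 with the block, and LRP6 from D12 to D30 was 0.011 by DESeq2 and 0.0092 by RLE. With a library left out, the ranges for TMG were −0.020 to 0.50 (AXIN2), −1.86 to 1.10 (DKK1), −0.75 to 1.95 (LEF1) and −0.0080 to 0.14 (LRP6) on D0, −0.050 to 0.44 (LRP5) and −0.14 to 0.18 (LRP6) on D30, and −0.30 to 1.30 (LEF1), −0.061 to 0.055 (LRP5), −0.076 to 0.17 (LRP6) and −0.52 to 0.061 (TCF7) on D70. For stage steps in DMSO they were −0.092 to 0.058 for LRP6 from D0 to D12, −0.092 to 0.40 for LRP5 and −0.19 to 0.13 for LRP6 from D12 to D30, and −0.25 to 0.31 for TCF7 from D30 to D70.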
